A study of Mus musculus with 23 samples.

Results

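The growth hormone and IGF axis was followed here through 8 genes, Igf1, Ghr, Socs2, Igfals, Igfbp3, Igfbp1, Igfbp2 and Igfbp4, found on the array by their listed gene symbols. The set was drawn up with earlier results of these data known. Each had 1 feature on the array, so the axis is 8 of the 18688 features with a listed gene. Liver RNA came from female C57BL/6 mice that, per the labels, were 12 to 13 weeks old and were sampled 90 minutes after exposure. Mice inhaled carbon black (CB, Printex 90; 8 mice) or diesel exhaust particles (DEP, NIST standard reference material; 7 mice) at 20 mg/m3 for 90 minutes on each of 4 days, and 8 mice inhaled filtered air in the same way. The study's methods give another age range, another interval after exposure and another RNA kit than the labels. Each array carried liver RNA of 1 mouse in Cy5 beside a purchased universal mouse reference RNA in Cy3, and the dyes were never exchanged. Values below are log2 ratios of liver to reference, so they rank mice within a gene and do not rank genes by abundance.

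Growth hormone from the pituitary binds its receptor on hepatocytes, and the receptor acts through the kinase Jak2 and the transcription factor Stat5b. The liver answers by making Igf1, which circulates bound to carrier proteins, most of it in a ternary complex of IGF, Igfbp3 and the acid-labile subunit encoded by Igfals. Insulin and nutrition set other parts of the axis, Igfbp1 above all. In whole liver RNA, fewer cells of a type and less RNA per cell cannot be told apart.

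All 8 genes gave signal, 1 of them close to the limit. Over features with a listed gene, array medians of Cy5 ran from 268 to 549 in CB mice, from 312 to 511 in DEP mice and from 262 to 541.5 in air mice. The flag absent was set in Cy5 for 20.5% to 40.0% of these features in CB mice, for 19.2% to 37.4% in DEP mice and for 13.8% to 41.9% in air mice. All 8 genes had a log2 ratio above 0 on all 23 arrays, which held for 18.9% of all features. Igfbp3 alone was dim, with a Cy5 signal below the array median on 22 of 23 arrays. The 15 measured hepatocyte markers were all above the reference in air livers and none was absent on every array. The mice came from 3 rounds of exposure, round 1 with 1 CB, 1 DEP and 2 air mice, round 2 with 6 CB, 2 DEP and 4 air mice, and round 3 with 1 CB, 4 DEP and 2 air mice. CB mice therefore came mostly from round 2 and DEP mice mostly from round 3.

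None of the 8 genes passed the test in any comparison with loess ratios. In limma, with p-values adjusted by the Benjamini-Hochberg method over 18688 features, 0% of features passed for CB against air, 0% for DEP against air and 0% for CB against DEP. At an unadjusted p under 0.05, 5.94% of all features lay below the limit for CB against air (3.39% with CB lower, 2.55% with CB higher), and 2 of the 8 genes did (Igfbp3 and Igfals, both lower). For DEP against air the background was 4.82% (2.53% with DEP lower, 2.28% with DEP higher) and 1 gene was among them (Igfbp3, lower), and for CB against DEP it was 3.44% and again 1 gene was (Igfbp2). In counts of features these backgrounds are 1110, 900 and 643, and an Fs test written after the study's methods and run on the same loess ratios, with 100 shuffles of the residuals, called 0 features in each comparison. The CB means lay below the air means for 7 of 8 genes, against 49.8% of all features, with a median log2 difference of −0.17 over the 8 genes (with median centring in place of loess, 67.2% of all features lay lower). The DEP means lay below the air means for 5 of 8, against 50.0% of all features, with a median of −0.06. Without Igf1 and Igfbp1, which reached the scanner maximum on some arrays, 5 of 6 lay lower after CB with a median of −0.17 and 3 of 6 after DEP with a median of 0.03. CB lay below DEP for 5 of 8, against 50.1% of all features. The groups overlapped for all 8 genes in each comparison, whereas 0.0589% of all features did not overlap between CB and air, 0.0107% between DEP and air and 0.0268% between CB and DEP. The comparisons with air use the same 8 air mice. The median over all features was 0.001 for CB and 0 for DEP. No p-value here measures more than the spread between mice with 1 array each.

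**Figure D1:**
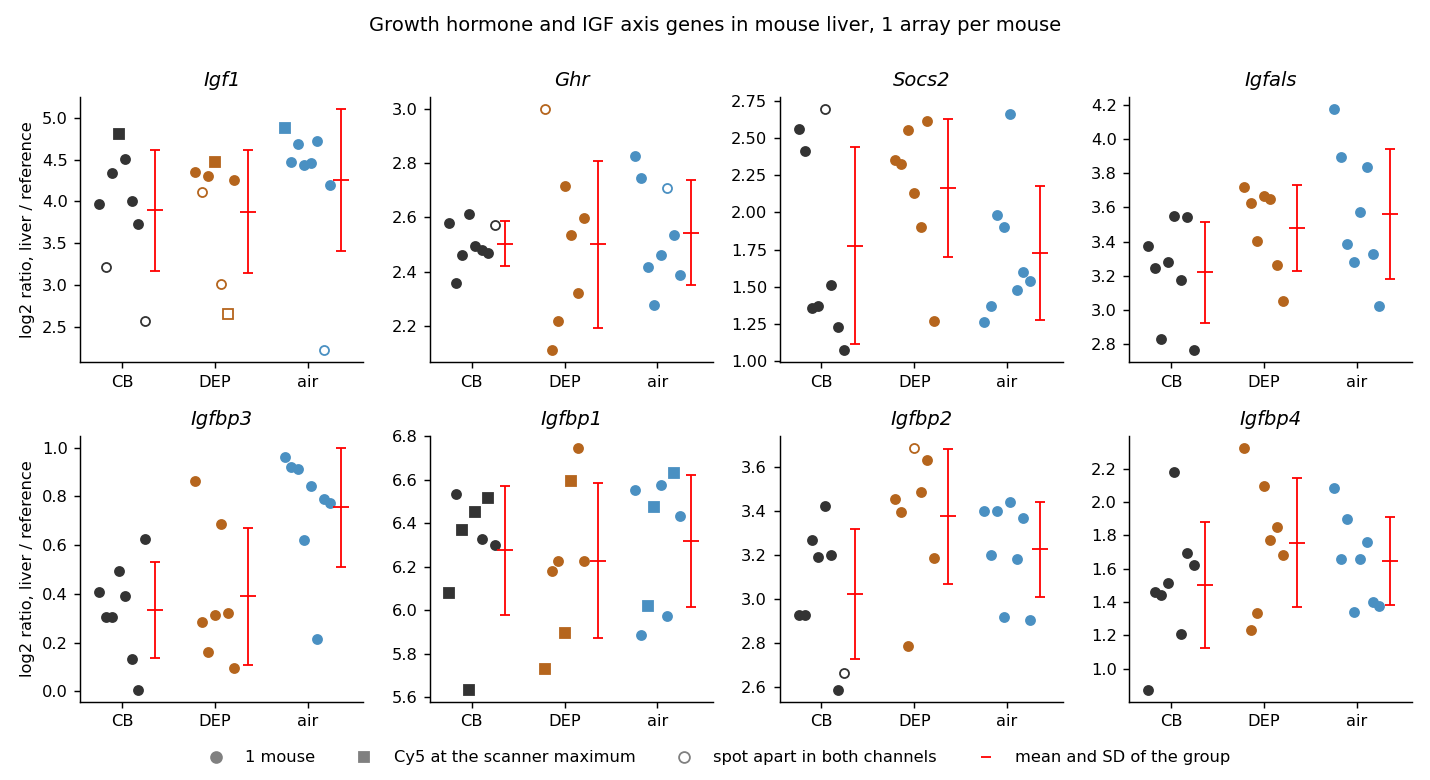
Log2 ratio of liver to reference (vertical axis, a separate scale for each gene) in CB, DEP and air mice; points are mice, squares have a Cy5 signal at the scanner maximum, open symbols are spots apart in both channels, and red bars give the mean ± SD. The groups overlap for every gene, and the low Igf1 values are mostly open symbols.

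**Figure D2:**
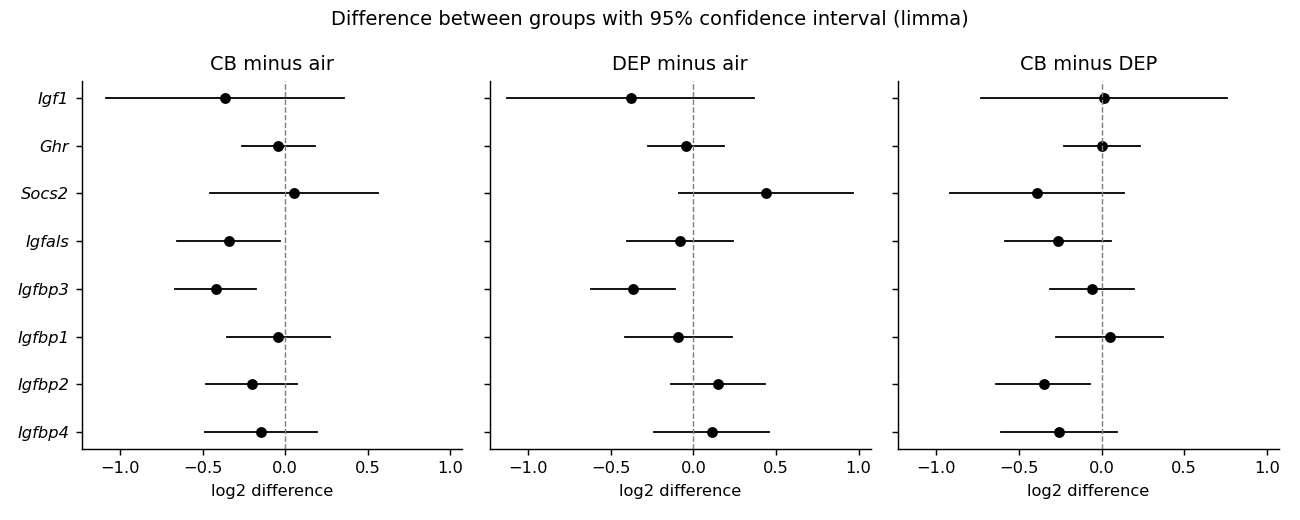
Log2 difference between group means (horizontal axis, points) with the 95% confidence interval of limma (lines) for each gene, in CB minus air, DEP minus air and CB minus DEP. The interval leaves out 0 for Igfbp3 and Igfals in CB minus air, for Igfbp3 in DEP minus air and for Igfbp2 in CB minus DEP, before any adjustment for the number of features.

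Igf1 encodes the circulating growth factor at the centre of the axis, and its array feature (NM_010512, chromosome 10) was the least even of the 8. Its log2 ratio ran from 2.56 to 4.80 in CB mice with a median of 3.99, from 2.65 to 4.47 in DEP mice with a median of 4.26, and from 2.22 to 4.88 in air mice with a median of 4.46. The 3 groups overlapped almost fully, with 1 or 2 mice in each group far below the rest. The mean was 3.89 ± 0.73 in CB mice (SD, n = 8), 3.88 ± 0.73 in DEP mice (SD, n = 7) and 4.26 ± 0.85 in air mice (SD, n = 8). The log2 difference was −0.37 for CB against air (standard error 0.35, adjusted p = 0.917 in limma) and −0.38 for DEP against air (standard error 0.36, adjusted p = 0.997 in limma). Without air mouse 835432 they were −0.66 for CB and −0.67 for DEP, without CB mouse 835436 the CB difference was −0.17, and without DEP mouse 835434 the DEP difference was −0.17. Between CB and DEP it was 0.02, with a 95% interval of −0.73 to 0.76. In DEP mouse 835434 the Igf1 Cy5 signal was at the scanner maximum and Cy3 was 7140. The ratio of 2.65 in that mouse is therefore a lower bound. The residual SD of Igf1 between mice was 0.77, larger than that of 98.7% of all features, whose median was 0.24.

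The spread of Igf1 lay in a few spots that were dim or bright in both channels at once. The Cy5 signal ran from 1075.5 to 65535, the scanner maximum. A spot was taken as apart where its mean log2 signal of both channels, less the array median, lay more than 1 from the median of that feature over the arrays, which 2.83% of all spots did. For Igf1 this held on 6 of 23 arrays. The log2 deviation from the usual brightness was −4.21 in CB mouse 835436, −3.67 in DEP mouse 444 and −4.16 in air mouse 835432. It was −2.16 in CB mouse 48 and −2.20 in DEP mouse 55, whereas DEP mouse 835434 lay at 1.42. The 5 lowest log2 ratios of Igf1 all came from these 6 spots. Of the 20 features next to Igf1 by number, 12 also stood apart by more than 1 on the array of DEP mouse 55, 10 on that of air mouse 835432, 9 on that of DEP mouse 835434, 7 on that of CB mouse 48, 5 on that of CB mouse 835436 and 4 on that of DEP mouse 444. Such neighbours also occurred where Igf1 itself was not apart, 11 on the array of air mouse 54 and 10 on that of DEP mouse 835435. What made these spots stand apart was not tested.

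Without these spots the Igf1 values drew together. The mean was then 4.23 ± 0.40 in CB mice (SD, n = 6), 4.34 ± 0.09 in DEP mice (SD, n = 4) and 4.55 ± 0.23 in air mice (SD, n = 7). The residual SD was 0.28. The log2 difference was −0.32 for CB against air (standard error 0.15, adjusted p = 0.780 in limma) and −0.21 for DEP against air (adjusted p = 0.985 in limma). Leaving out these spots was chosen after the values were seen, and 4 of the 23 spots, 3 of them kept, were at the scanner maximum, where a ratio is a lower bound.

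**Figure D3:**
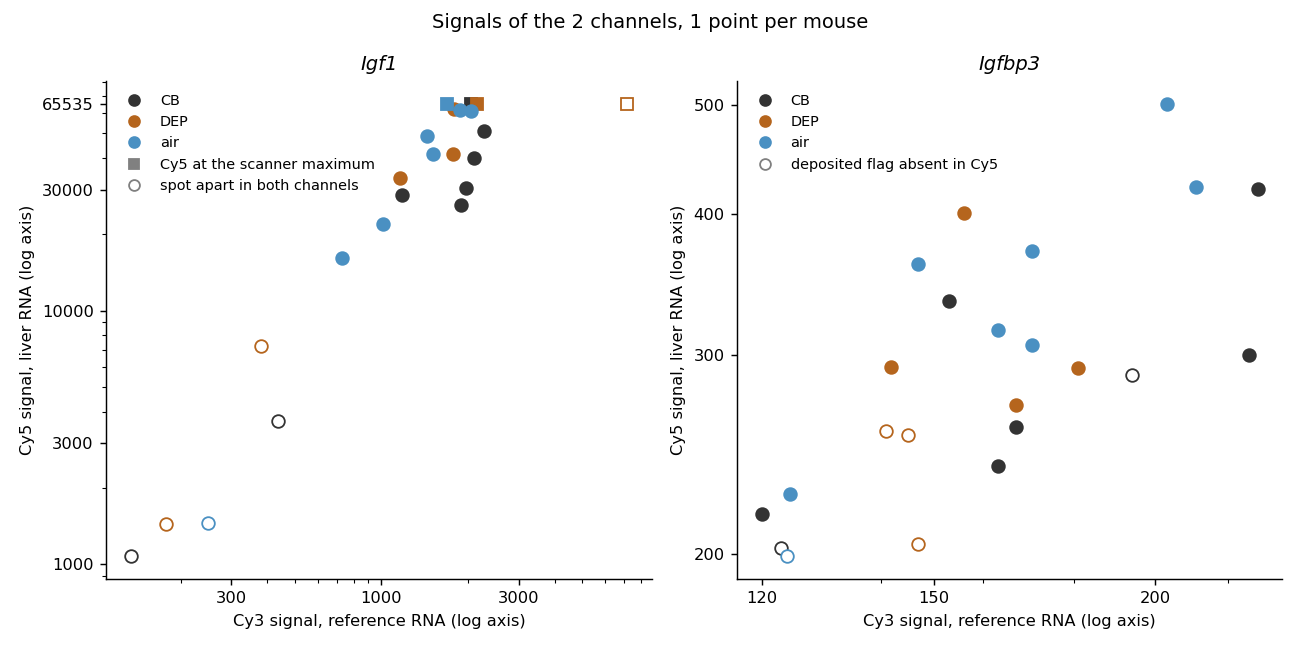
Cy5 signal of liver RNA against Cy3 signal of reference RNA (both log axes, arbitrary scanner units) for Igf1 and Igfbp3; each point is 1 mouse, open symbols mark spots apart in both channels (Igf1) or flagged absent in Cy5 (Igfbp3), and squares mark Cy5 at the maximum of 65535. Igf1 spots run along a diagonal, dim or bright in both dyes together, whereas the Igfbp3 signals stay between 199 and 501 in Cy5.

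Ghr, the growth hormone receptor (NM_010284, chromosome 15), was the most even of the 8. Its log2 ratio ran from 2.36 to 2.61 in CB mice with a median of 2.49, from 2.11 to 3.00 in DEP mice with a median of 2.53 and from 2.28 to 2.83 in air mice with a median of 2.50. All CB mice lay within the range of the other groups, and the highest and the lowest value both belonged to DEP mice (51 and 55). The mean was 2.50 ± 0.08 in CB mice (SD, n = 8), 2.50 ± 0.31 in DEP mice (SD, n = 7) and 2.54 ± 0.20 in air mice (SD, n = 8). The 95% interval of the log2 difference was −0.26 to 0.18 for CB against air and −0.27 to 0.19 for DEP against air, that is, a fold of 0.833 to 1.13 for CB and of 0.827 to 1.14 for DEP. The residual SD of 0.21 was larger than that of 31.5% of all features. The Ghr spot stood apart in both channels on 3 arrays, furthest on that of air mouse 443 (a log2 deviation of −2.52 from the usual brightness).

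Socs2 encodes a suppressor of cytokine signalling that growth hormone induces and that damps the receptor (NM_007706, chromosome 10). Its log2 ratio ran from 1.07 to 2.70 in CB mice with a median of 1.44, from 1.27 to 2.62 in DEP mice with a median of 2.32 and from 1.27 to 2.66 in air mice with a median of 1.57. In the CB group 3 mice (445, 47 and 48) lay at 2.41 or above and the other 5 at 1.51 or below, whereas 5 of 7 DEP mice lay at 2.13 or above. The mean was 1.78 ± 0.67 in CB mice (SD, n = 8), 2.17 ± 0.47 in DEP mice (SD, n = 7) and 1.72 ± 0.45 in air mice (SD, n = 8). The log2 difference for DEP against air was 0.44, with a 95% interval of −0.09 to 0.97 (adjusted p = 0.997 in limma). Under the 14 alternatives other than leaving out a mouse it stayed above 0, between 0.32 and 0.55. Without each mouse in turn it lay between 0.37 and 0.59, and the smallest adjusted p of all these was 0.789 in limma. The Fs test, the threshold of 0.1, the filter on dim features and the fit of only the groups compared keep the main difference by construction. For CB against air the log2 difference was 0.05 and changed sign under 5 of 14 alternatives. The residual SD of 0.54 was larger than that of 94.8% of all features, and only 1 of the 23 spots stood apart in both channels.

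Igfals encodes the acid-labile subunit of the ternary complex and is a growth hormone target of hepatocytes (NM_008340, chromosome 17). RefSeq lists 3 start sites, and the 250 bases before 2 of them hold the letters TTCNNNGAA, the core to which Stat5 binds, on either strand. These letters occur in 7.02% of 32851 such windows of the genome, and a match is a description of the sequence, not of binding. The windows are shown because Igfals is a known Stat5b target and had the second lowest p after CB, with the match in capitals, in build GRCm38.p6 on the plus strand, at chr17:24877594-24877843 and chr17:24877981-24878230. The matches begin at −236 and −58 from the start sites.
Igfals window 1: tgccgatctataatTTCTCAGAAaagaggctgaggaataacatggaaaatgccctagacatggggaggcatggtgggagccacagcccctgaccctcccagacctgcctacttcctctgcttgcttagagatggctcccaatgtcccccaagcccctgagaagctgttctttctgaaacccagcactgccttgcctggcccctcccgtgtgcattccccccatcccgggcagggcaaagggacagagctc
Igfals window 2: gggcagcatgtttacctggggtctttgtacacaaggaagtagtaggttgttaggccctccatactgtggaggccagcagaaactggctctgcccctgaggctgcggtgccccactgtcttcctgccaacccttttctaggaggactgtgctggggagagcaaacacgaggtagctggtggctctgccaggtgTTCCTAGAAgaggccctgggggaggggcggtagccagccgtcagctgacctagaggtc

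The log2 ratio of Igfals ran from 2.76 to 3.55 in CB mice with a median of 3.26, from 3.05 to 3.72 in DEP mice with a median of 3.63 and from 3.02 to 4.18 in air mice with a median of 3.48. In the CB group 2 mice (835436 and 58) lay below all air mice and 6 of 8 below the air median, but the upper CB values lay well within the air range. The mean was 3.22 ± 0.29 in CB mice (SD, n = 8), 3.48 ± 0.25 in DEP mice (SD, n = 7) and 3.56 ± 0.38 in air mice (SD, n = 8). For CB against air the log2 difference was −0.34 (standard error 0.15), a fold of 0.789 with a 95% interval of 0.636 to 0.979, and the adjusted p was 0.838 in limma. For DEP against air it was −0.08 with an interval of −0.40 to 0.24, and for CB against DEP −0.26 with an interval of −0.58 to 0.06. No Igfals spot was absent, saturated or apart on any array. With round as a block, CB against air gave −0.38, within round 2 −0.49 and within round 3, with 1 CB mouse, −0.41. From the Cy5 signal alone, without the reference, it was 0.15. With median centring it was −0.66 (adjusted p = 0.0290 in limma), the only value of the 8 genes that passed under any alternative tried, on a scale where the median of all features lay at −0.11.

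Igfbp3, the main carrier of IGF in blood, had the lowest p of the 8 genes in both particle groups (NM_008343, chromosome 11). In rodent liver it is made chiefly by cells other than hepatocytes. Its log2 ratio ran from 0.01 to 0.63 in CB mice with a median of 0.35, from 0.10 to 0.86 in DEP mice with a median of 0.31 and from 0.21 to 0.96 in air mice with a median of 0.82. All 8 CB mice and 6 of 7 DEP mice lay below the air median, and 7 of 8 air mice lay at 0.62 or above, with air mouse 443 at 0.21. The mean was 0.33 ± 0.20 in CB mice (SD, n = 8), 0.39 ± 0.28 in DEP mice (SD, n = 7) and 0.76 ± 0.24 in air mice (SD, n = 8).

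For CB against air the log2 difference of Igfbp3 was −0.42 (standard error 0.12), a fold of 0.747 with a 95% interval of 0.629 to 0.886. It ranked 48 among all features (unadjusted p = 0.00171, adjusted p = 0.621 in limma). For DEP against air it was −0.37 (standard error 0.12), a fold of 0.777 with an interval of 0.650 to 0.927, at rank 103 (unadjusted p = 0.00696, adjusted p = 0.997 in limma). Between CB and DEP it was −0.06 with an interval of −0.31 to 0.20. Both differences from air stayed below 0 under all 14 alternatives and without each mouse in turn. Part of this was fixed by construction, since some alternatives keep the main difference, as given for Socs2. Leaving out a mouse of the group not compared keeps it too. Over the alternatives the differences lay between −0.56 and −0.16 for CB against air, and between −0.47 and −0.24 for DEP against air. From the Cy5 signal alone they were −0.17 for CB and −0.24 for DEP (adjusted p = 0.988 and 0.979 in limma).

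The Igfbp3 signal was close to the detection limit. Cy5 was 199 to 501, and it was flagged absent in 2 CB, 3 DEP and 1 air mice. Cy3 was flagged absent in 3 CB, 5 DEP and 7 air mice, so that most ratios set a dim liver signal against a reference at the limit. Of the 18 measured endothelial markers, 13 lay lower in CB than in air mice with a median log2 difference of −0.09, and 10 lay lower in DEP mice with a median of −0.02. At an unadjusted p under 0.05, 0 lay on the lower and 1 on the higher side after CB (Cdh5), and 1 on the lower and 0 on the higher side after DEP (Flt1). Over all features these shares were 3.39% lower and 2.55% higher for CB, and 2.53% and 2.28% for DEP. At any p, 49.8% of all features lay lower after CB and 50% after DEP. Of the 12 measured Kupffer cell and macrophage markers, 6 lay lower in CB mice with a median of −0.01 and 6 in DEP mice with a median of 0.02. The summed Cy5 signal of these 2 lists, normalized by quantiles over the arrays, overlapped between the groups. For the endothelial list it was 20740 to 29268 in CB, 18352 to 28916 in DEP and 21710 to 31509 in air mice. For the Kupffer list it was 38662 to 64890 in CB, 37572 to 78099 in DEP and 40105 to 71850 in air mice. The part of these cells in the Igfbp3 values was not tested. The 250 bases before its start hold the letters TATATA at −30, as 5.25% of windows do (GRCm38.p6, chr11:7213924-7214173, minus strand, either strand searched). The window is shown because Igfbp3 had the lowest p, with the match in capitals.
Igfbp3: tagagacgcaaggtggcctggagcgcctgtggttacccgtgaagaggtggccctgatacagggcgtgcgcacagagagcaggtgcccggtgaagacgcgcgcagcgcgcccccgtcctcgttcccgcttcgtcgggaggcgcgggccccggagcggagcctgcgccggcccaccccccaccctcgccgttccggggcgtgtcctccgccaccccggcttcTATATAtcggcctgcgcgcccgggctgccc

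Igfbp1 binds IGF with a short half-life in blood, and its transcription is switched off by insulin through Foxo1 (NM_008341, chromosome 11). It sits next to Igfbp3 on chromosome 11. Its window is shown for comparison with that of Igfbp3: it holds the letters CAAAACAA, the core of the insulin response element, at −108, as do 2.21% of windows (either strand searched; GRCm38.p6, chr11:7197537-7197786, plus strand, match in capitals).
Igfbp1: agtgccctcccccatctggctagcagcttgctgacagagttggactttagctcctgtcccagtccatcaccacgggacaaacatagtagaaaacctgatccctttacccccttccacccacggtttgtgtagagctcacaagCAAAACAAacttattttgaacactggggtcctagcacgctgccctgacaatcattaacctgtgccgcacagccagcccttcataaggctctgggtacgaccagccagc

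The log2 ratio of Igfbp1 ran from 5.64 to 6.53 in CB mice with a median of 6.35, from 5.73 to 6.75 in DEP mice with a median of 6.23 and from 5.89 to 6.63 in air mice with a median of 6.45. The groups overlapped over almost their whole range. The Cy5 signal was at the scanner maximum in 5 CB, 3 DEP and 3 air mice, so that these ratios are lower bounds. The mean was 6.28 ± 0.30 in CB mice (SD, n = 8), 6.23 ± 0.36 in DEP mice (SD, n = 7) and 6.32 ± 0.31 in air mice (SD, n = 8). The 95% interval of the log2 difference was −0.36 to 0.27 for CB against air and −0.42 to 0.23 for DEP against air. Both differences changed sign to above 0 from the Cy5 signal alone, at 0.47 for CB and 0.27 for DEP. On that scale, normalized by quantiles over the arrays, the saturated spots ran from 15.49 (DEP mouse 51) to 16 (CB mouse 47). The true signal of these spots is not known.

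Igfbp2, a carrier secreted by hepatocytes that binds IGF outside the ternary complex (NM_008342, chromosome 1), had its particle group means on opposite sides of the air mean. Its log2 ratio ran from 2.59 to 3.42 in CB mice with a median of 3.06, from 2.79 to 3.68 in DEP mice with a median of 3.45 and from 2.91 to 3.44 in air mice with a median of 3.28. All 8 CB mice lay below the DEP median, and 4 of 7 DEP mice lay above all air mice, while 1 DEP mouse (56) lay below them all. The mean was 3.02 ± 0.30 in CB mice (SD, n = 8), 3.37 ± 0.31 in DEP mice (SD, n = 7) and 3.23 ± 0.22 in air mice (SD, n = 8). For CB against DEP the log2 difference was −0.35 (standard error 0.14), a fold of 0.784 with a 95% interval of 0.644 to 0.955, and the adjusted p was 1.00 in limma. It ranked 183 by p. It kept its sign under all 14 alternatives, between −0.82 (within round 3, with 1 CB mouse) and −0.07. Some of these keep the main difference by construction, as given for Socs2. Without the spots that stood apart in both channels it was −0.25 (standard error 0.14), and its unadjusted p was then 0.0895 in limma. Against air, with all spots kept, the log2 difference was −0.20 for CB and 0.15 for DEP, and neither interval left out 0.

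Igfbp4 encodes a binding protein that holds IGF away from its receptor until a protease cuts it (NM_010517, chromosome 11). Its log2 ratio ran from 0.87 to 2.18 in CB mice with a median of 1.49, from 1.23 to 2.33 in DEP mice with a median of 1.77 and from 1.34 to 2.09 in air mice with a median of 1.66. In the CB group 1 mouse (445) lay above the air range and 2 (47 and 446) below it, and 2 DEP mice lay outside it on each side. The mean was 1.50 ± 0.38 in CB mice (SD, n = 8), 1.76 ± 0.39 in DEP mice (SD, n = 7) and 1.65 ± 0.27 in air mice (SD, n = 8). The log2 difference was −0.15 for CB against air (interval −0.48 to 0.19), 0.11 for DEP against air (−0.24 to 0.46) and −0.26 for CB against DEP (−0.61 to 0.09).

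The rounds of exposure were compared as a batch of the labels that crosses the groups. Between round 3 and round 2, fitted beside the group, 0% of the features passed in limma and 6.44% had an unadjusted p under 0.05, among them 2 of the 8 genes. Igf1 averaged 3.53 ± 1.00 in round 3 (SD, n = 7) and 4.14 ± 0.58 in round 2 (SD, n = 12), and the log2 difference fitted beside the group was −0.71 (adjusted p = 0.774 in limma). Without air mouse 835432 it was −0.35. In round 3 the low Igf1 values of air mouse 835432 (2.22), CB mouse 835436 (2.56) and DEP mouse 835434 (2.65) came from spots apart in both channels. In round 2 the values of DEP mouse 444 (3.01) and CB mouse 48 (3.22) came from such spots too. Igfals averaged 3.26 ± 0.35 in round 3 and 3.45 ± 0.35 in round 2, and the difference fitted beside the group was −0.34 (adjusted p = 0.762 in limma). With the array set, a run of array numbers, as a block Igf1 turned to 0.21 and Igfals to 0.19. Igfbp3 differed by 0.06 between these rounds. Within round 2 its difference was −0.56 for CB against air and −0.41 for DEP against air, and within round 3, with 1 CB mouse, −0.16 for CB and −0.38 for DEP against air.

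Few pairs of genes moved together across mice. Over 28 pairs of genes, with group means removed, Pearson's r over 23 mice ran from −0.585 to 0.592, and 2 pairs passed a two-sided permutation test of r after adjustment over the 28 pairs. Igfbp4 and Ghr gave r = 0.592 (permutation p = 0.00324, adjusted p = 0.0458) and a Spearman's rho of 0.529 (permutation p = 0.0111, adjusted p = 0.104). Without the 2 mice farthest from the median of Igfbp4, r was 0.618, and within rounds 2 and 3 it was 0.514 and 0.811. Igf1 and Igfbp1 gave r = −0.585 (permutation p = 0.00327, adjusted p = 0.0458) and rho = −0.595 (permutation p = 0.00354, adjusted p = 0.0991). Without the 2 mice farthest from the median of Igf1, r was −0.665, and within the rounds it was −0.586 and −0.758. Igfbp1 was at the scanner maximum on 11 of the 23 arrays and Igf1 on 4, so these ratios are lower bounds. The part of saturation in this correlation was not tested.

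Neither relation passed without the reference channel. From the Cy5 signal alone r was −0.234 for Igfbp4 and Ghr and −0.236 for Igf1 and Igfbp1, and 0 of the 28 pairs passed. With the spots apart in both channels set to missing, r was 0.472 over 20 mice and −0.409 over 17 mice, and again 0 pairs passed. Both values of a pair come from the same array, and the part of array brightness in these correlations was not tested. Igf1 with Igfals, the partners in the ternary complex whose genes both answer to growth hormone, gave r = 0.364 (permutation p = 0.0885, adjusted p = 0.310). Igf1 with Ghr gave 0.206 and Igf1 with Socs2 gave 0.043.

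**Figure D4:**
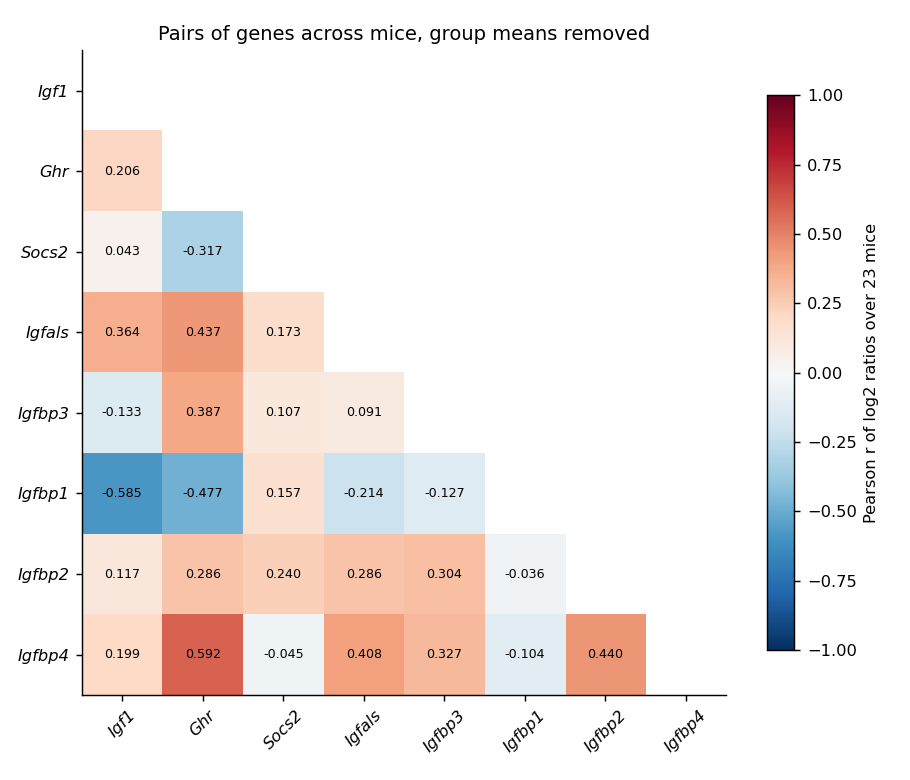
Pearson's r of log2 ratios for the 28 pairs of genes over 23 mice after group means were removed (colour scale from −1 to 1, value in each cell). The strongest cells are Igfbp4 with Ghr (0.592) and Igf1 with Igfbp1 (−0.585).

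For the 4 genes with the widest spread between mice, the features whose log2 ratios ran most like theirs were sought among 13202 features that were mostly present and never saturated. Pearson's r over 23 mice after removal of group means is given as a description with no p, since each is the highest of many and all share the same arrays. Igfbp4 ran most like Gabarapl1 (r = 0.888), Fkbp5 (0.881) and Itih1 (0.850), of which the first and the second were at 0.889 and 0.773 in round 2 and at 0.918 and 0.962 in round 3. Socs2 ran most like Wdr81 (0.794), Zbtb5 (0.780) and Dus3l (0.757). Igf1 ran most like Akr1c14 (0.789), Api5 (0.724) and Mmut (0.723), of which Akr1c14 had 7 spots apart in both channels and lies 427 features from Igf1 by number. Igfbp1 ran most like Zmat4 (0.679), Ehbp1 (0.664) and Abca14 (0.652), the loosest of these likenesses, and the r of Zmat4 was 0.491 without the 2 mice farthest from the median. Igfbp1 itself was at the scanner maximum on 11 of the 23 arrays and Igf1 on 4, where a ratio is a lower bound.

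No other listed gene of the pathway passed the test. Of 29 measured genes of growth hormone receptor signalling (the kinases, Stat factors, phosphatases and suppressors), 0 passed in either direction in either particle group. Over all features 49.8% lay lower after CB and 50% after DEP. At an unadjusted p under 0.05 the shares were 3.39% lower and 2.55% higher for CB, and 2.53% and 2.28% for DEP. After CB 14 of the 29 genes lay lower, with 0 at an unadjusted p under 0.05 on the lower and 1 on the higher side. After DEP 12 lay lower, with 0 on each side. The gene on the higher side was Tyk2, a Janus kinase, at 0.02 ± 0.21 in CB mice (SD, n = 8), −0.11 ± 0.22 in DEP mice (SD, n = 7) and −0.26 ± 0.22 in air mice (SD, n = 8), a log2 difference of 0.28 after CB (adjusted p = 0.827 in limma). Stat3, the transcription factor of the acute phase, averaged 0.54 ± 0.23 in CB, 0.41 ± 0.09 in DEP and 0.61 ± 0.24 in air mice. Ptpn6, a phosphatase that acts on Jak2, averaged 0.17 ± 0.15 in CB, 0.22 ± 0.21 in DEP and 0.02 ± 0.15 in air mice. Adam17, a protease that sheds the receptor, was flagged absent on 22 arrays.

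Of 17 measured IGF ligands, receptors, other binding proteins and their proteases, 0 passed in either direction. The shares over all features are those given for receptor signalling. After CB 8 genes lay lower and 1 of them had an unadjusted p under 0.05, and after DEP 9 lay lower and 0 did. That gene was Igfbp7, an IGF-binding protein of low affinity found in vessel walls, at −0.05 ± 0.31 in CB mice, 0.00 ± 0.28 in DEP mice and 0.23 ± 0.15 in air mice (SD, n = 8, 7 and 8), with a log2 difference of −0.28 after CB (adjusted p = 0.838 in limma) and −0.23 after DEP (adjusted p = 0.997 in limma). Igfbp5 averaged 0.67 ± 0.43 in CB, 0.54 ± 0.18 in DEP and 0.49 ± 0.23 in air mice, and Klk1, a kallikrein protease, 0.60 ± 0.14 in CB, 0.62 ± 0.35 in DEP and 0.81 ± 0.10 in air mice. The insulin receptor, Insr, averaged 0.29 ± 0.30 in CB, 0.49 ± 0.30 in DEP and 0.53 ± 0.33 in air mice.

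Of 23 measured insulin receptor substrates, downstream kinases and FOXO factors, again 0 passed. The shares over all features are again those given for receptor signalling. After CB 10 genes lay lower, 1 of them with an unadjusted p under 0.05, and after DEP 12 lay lower, with 0. The gene was Foxo4, at 1.22 ± 0.18 in CB mice, 1.35 ± 0.27 in DEP mice and 1.50 ± 0.19 in air mice (SD, n = 8, 7 and 8), a log2 difference of −0.28 after CB (adjusted p = 0.827 in limma). Foxo3 averaged −0.07 ± 0.18 in CB, 0.15 ± 0.25 in DEP and 0.16 ± 0.25 in air mice, and Pdpk1, the kinase that activates Akt, −0.21 ± 0.20 in CB, −0.33 ± 0.21 in DEP and −0.17 ± 0.19 in air mice.

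Growth hormone also sets the sex bias of many liver genes through the timing of its pulses. The Cy5 signal of some of these genes reached the scanner maximum, where a ratio is a lower bound, so the lists were also counted over the genes that never reached it, a choice made after the values were seen. In neither list did a gene pass in either direction. Of 18 measured female-biased genes, 6 had a saturated spot on some array, 2 of them on all arrays. Of the other 12, 7 lay lower after CB with a median log2 difference of −0.11, and 5 after DEP with a median of 0.03. On the lower side at an unadjusted p under 0.05 was 1 of the 12 after CB and 0 after DEP, and on the higher side 0 in each, against shares over all features on the lower side of 3.39% for CB and 2.53% for DEP. Of 24 measured male-biased genes, 5 had a saturated spot. Of the other 19, 10 lay lower after CB with a median of −0.05 and 9 after DEP with a median of 0.03, with 1 on the lower side at an unadjusted p under 0.05 in each and 0 on the higher side. With the saturated genes counted too, these medians were −0.22 after CB and −0.03 after DEP for the female-biased list, and −0.09 after CB and −0.08 after DEP for the male-biased list. Of the 18 female-biased genes, 12 then lay lower after CB and 9 after DEP, 4 and 3 of them at an unadjusted p under 0.05 in limma. Of the 24 male-biased genes, 14 lay lower after CB and 14 after DEP, again 4 and 3 of them at that limit. On the higher side there were 0 at that limit in either list.

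Cyp2b13, a female-biased cytochrome P450 that was never at the maximum, averaged 3.98 ± 0.25 in CB mice, 4.05 ± 0.25 in DEP mice and 4.28 ± 0.28 in air mice (SD, n = 8, 7 and 8), a log2 difference of −0.29 after CB (adjusted p = 0.837 in limma). Cyp3a16 averaged 6.87 ± 0.41 in CB, 6.97 ± 0.34 in DEP and 7.42 ± 0.16 in air mice, with 2 CB, 3 DEP and 5 air arrays at the maximum. Cyp2c40 was at the maximum on 5 CB, 5 DEP and 5 air arrays and Cyp2a4 on all 23, so that no difference is given for either.

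Among the male-biased genes, Cyp2d9 averaged 3.43 ± 0.22 in CB mice, 3.70 ± 0.26 in DEP mice and 4.44 ± 1.14 in air mice (SD, n = 8, 7 and 8). The log2 difference was −1.02 after CB (adjusted p = 0.634 in limma) and −0.75 after DEP (adjusted p = 0.997 in limma). Its signal was at the maximum on 2 CB, 2 DEP and 4 air arrays, and 2 of its spots stood apart in both channels. Its SD was widest in the air mice, so these differences are limited by uneven air values. Selenbp2, a selenium-binding protein, averaged 3.14 ± 0.25 in CB, 3.01 ± 0.21 in DEP and 3.35 ± 0.16 in air mice, with 1 CB, 2 DEP and 4 air arrays at the maximum. Elovl3, a fatty acid elongase, averaged 0.72 ± 0.31 in CB, 0.45 ± 0.54 in DEP and 0.90 ± 0.27 in air mice. Mup5 was at the maximum on 21 arrays, all 8 of the air group among them, and no difference is given.

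The hepatocyte and acute phase lists were limited by the scanner maximum in the same way, and none of their genes passed after adjustment in limma. Of the 15 hepatocyte markers, 10 had a saturated spot on some array, 4 of them on all arrays. Of the other 5, 5 lay lower after CB with a median log2 difference of −0.32 and 4 after DEP with a median of −0.05, and 0 had an unadjusted p under 0.05 in either comparison. With the saturated genes counted too, 12 of the 15 lay lower after CB with a median of −0.32, and 13 after DEP with a median of −0.245. On the lower side at an unadjusted p under 0.05 in limma were 2 after CB and 4 after DEP, and on the higher side 0 in each. Of 22 acute phase genes, 9 had a saturated spot on some array, 2 of them on all arrays. Of the other 13, 10 lay lower after CB with a median of −0.14 and 8 after DEP with a median of −0.11, with 2 after CB (Orm1 and Saa4) and 1 after DEP (Saa4) at an unadjusted p under 0.05 on the lower side, and 0 on the higher side, beside the same shares over all features. With the saturated genes counted too, 19 of the 22 lay lower after CB with a median of −0.21, and 17 after DEP with a median of −0.18. At an unadjusted p under 0.05 in limma, 6 lay on the lower side after CB and 5 after DEP, and 0 on the higher side in each. Over all features, 3.39% lay on the lower side at this limit for CB and 2.53% for DEP. At any p, 49.8% of all features lay lower after CB and 50% after DEP. The summed Cy5 signal of the hepatocyte markers, normalized by quantiles over the arrays, was 599168 to 686645 in CB, 518240 to 696822 in DEP and 615156 to 680035 in air mice. These sums include the markers at the scanner maximum, whose true signal is not known. Stellate cell (16 measured), bile duct (6), blood cell (16) and pancreatic acinar (13) markers had medians between −0.07 and 0.03 after CB and between 0.02 and 0.07 after DEP, and among their genes that never reached the maximum 0 had an unadjusted p under 0.05. With the saturated genes counted too, 2 blood cell markers lay on the lower side at an unadjusted p under 0.05 in limma after CB and 1 after DEP, and 0 on the higher side. What these lists share with the axis in these livers was not tested.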

How the data were processed

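The members and the gene lists were chosen with earlier results of these data known. The authors quantified each spot and deposited its Cy5 and Cy3 intensity, with no background subtracted, a log2 ratio after lowess on every array (R 2.4.1, per the labels), and flags of absent spots set from a negative control probe. No genome build is given in the sources used here.

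From the deposited intensities, log2 ratios of Cy5 to Cy3 were computed by loess within each array over 18688 of 22575 features; the other 3887, whose control spots are not marked, were not used. No filter on signal was applied. All 23 arrays (1 per mouse) were fitted in 1 model with limma 3.58.1 in R 4.3.3 (lmFit, eBayes), contrasts were each particle group minus air, CB minus DEP and, with a group term, round 3 minus round 2, and p-values were adjusted by Benjamini-Hochberg at 0.05. Pairs were tested with 100000 permutations (scipy 1.17.1). The test was checked on simulated data. Alternatives were the deposited ratios, median centring, normexp with an offset of 50, Cy5 alone, a filter on dim features, the Fs test, a threshold of 0.1, blocks for round, array set or exposure day, single rounds, the groups compared alone, leaving out each mouse in turn, and leaving out spots apart in both channels or, in lists, genes with a saturated spot. Promoter windows are from RefSeq (GRCm38.p6), which held 7 of the 8 members. Named genes are all members, up to 4 genes of each pathway list with the smallest p, and the 3 features most like each member of wide spread. Mouse numbers are those of the labels. The number of arrays limits the precision.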

Additional observations from a re-analysis of the deposited data

Results flagged for a closer look

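In 24 groups of a gene's values (8 genes in 3 groups), 2 held a mouse far from the others of its group, and chance gives about 1 in 20 such groups. The Igf1 log2 ratio of air mouse 835432 was 2.22, the next air mouse was at 4.20, and the gap was 0.744 of the group's range. Its spot was dim in both channels, with a log2 deviation of −4.16 from the usual brightness. The Igfbp3 log2 ratio of air mouse 443 was 0.21, the next air mouse was at 0.62, and the gap was 0.544 of the range. Both of its channels were flagged absent.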

How the results depend on the processing

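No paired analysis was possible because each mouse number occurs once, so that the groups share no replicate number. The 8 genes gave 32 differences, and over all alternatives and mice left out 77 of 1160 values changed sign and 1 became a call. With median centring in place of loess, 285 features passed for CB against air (15 higher and 270 lower), among them 1 of the 8 genes, Igfals at −0.66 (adjusted p = 0.0290 in limma), on a scale where the median of all features moved by −0.11 and 67.2% of features lay lower, against 49.8% with loess. Features called for CB against air were also 1 at a threshold of 0.1 and 50 within round 3 (1 CB mouse), and those for CB against DEP 100 within round 3. Without single mice they were 0 to 1 for CB against air (1 without CB mouse 59 or air mouse 442) and 0 to 1 between rounds (1 without DEP mouse 51). Between rounds they were 1 with median centring and 4 with the array set as a block. Pairs of genes that passed were 0 with Cy5 alone, with the deposited ratios or without spots apart, and 5 with round means removed. No other count of calls changed.

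These differences of the 8 genes, none of which had passed, changed sign. For CB against air they were, with Cy5 alone, 0.15 for Igfals, 0.47 for Igfbp1, 0.04 for Igfbp4 and 0.16 for Ghr, and within round 3 0.24 for Igfbp4 and 0.11 for Ghr. Socs2 was −0.18 with median centring, −0.033 with array set blocks, −0.06 within round 2, −0.50 within round 3 and −0.08 without spots apart. For DEP against air, Cy5 alone gave 0.28 for Igfals, 0.27 for Igfbp1, −0.085 for Igfbp2 and 0.29 for Ghr. Round 2 alone gave 0.036 for Igfbp1, −0.10 for Igfbp2 and −0.13 for Igfbp4, and round 3 alone 0.72 for Igf1, 0.25 for Igfals and 0.20 for Ghr. Median centring gave −0.019 for Igfbp2 and the round as a block 0.036 for Igfals. For CB against DEP, Igf1 was −0.17 with median centring, −0.14 with Cy5 alone, −0.30 with round blocks, −0.17 with array set blocks, −1.37 within round 3 and −0.12 without spots apart. Igfbp1 was −0.082 with median centring and −0.17 within round 2, Igfbp3 0.073 with Cy5 alone and 0.23 within round 3, and Ghr −0.20 with median centring, −0.12 with Cy5 alone and −0.089 within round 3. Between rounds the array set as a block gave 0.21 for Igf1, 0.19 for Igfals and 0.11 for Socs2. Igfbp1 was 0.11 with median centring, 0.005 with normexp and 0.073 with Cy5 alone, and Cy5 alone gave −0.32 for Igfbp2 and −0.25 for Ghr. The cause of these changes was not tested. The correlation of Igfbp4 and Ghr was −0.234 with Cy5 alone.

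Without each mouse in turn, the ranges that crossed 0 were −0.10 to 0.05 for Igfbp1 and −0.08 to 0.19 for Socs2 in CB against air, −0.16 to 0.008 for Igfals and −0.13 to 0.021 for Ghr in DEP against air, −0.19 to 0.21 for Igf1, −0.034 to 0.14 for Igfbp1, −0.10 to 0.022 for Igfbp3 and −0.062 to 0.086 for Ghr in CB against DEP, and −0.085 to 0.061 for Igfbp1, −0.091 to 0.16 for Igfbp2 and −0.015 to 0.13 for Igfbp3 between rounds. The dim signal of Igfbp3 and the saturated signals of Igf1 and Igfbp1 limit those genes.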
